A study of Mus musculus with 23 samples.

Results

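The Frizzled receptors are the surface proteins that bind Wnt ligands, and the mouse carries 10 of them, Fzd1 to Fzd10. Their expression was read from RNA-seq of mouse Kdm2b fl/fl ESCs in 3 untreated and 3 tamoxifen treated samples. The members were taken by gene name, and the family itself was chosen from the fall of Fzd1 in these same samples, so Fzd1 is described here with no test and only its 9 paralogs are tested. All 10 genes have values in the deposited tables, of 23363 gene names with usable values, and all 10 are among the 12997 genes tested. Expression is given as FPKM, a fragment number per unit of transcript length and of library depth, and a gene was tested if 3 or more samples reached 0.5 FPKM. Both groups carry the same 2 engineered features, loxP sites on both Kdm2b alleles that flank the exon for the larger part of the DNA-binding ZF-CxxC domain, and a Cre recombinase fused to a tamoxifen-responsive receptor domain and expressed from the Rosa26 locus. The tamoxifen group received 4-hydroxy tamoxifen at 800 nM for 72 hr according to the sample labels (the text of the series gives the dose in µM), and the untreated group received none. The cells were grown with LIF and serum on inactivated mouse embryonic fibroblasts and kept overnight without these feeders before treatment. No group of cells without floxed Kdm2b received tamoxifen among these samples, so deletion and exposure to the drug cannot be told apart. Groups were assigned by label. File naming contradicts the labels for all 6 samples, and if it were right every difference given here would have the opposite sign and an equal size.

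Frizzled proteins span the membrane several times and hold the Wnt ligand with an extracellular cysteine-rich domain. Together with the co-receptors LRP5 or LRP6 they signal through Dishevelled to stabilise beta-catenin, which activates genes with TCF/LEF proteins, and some members also act in planar cell polarity or with the receptors ROR and RYK. By sequence the mouse receptors fall into the subfamilies Fzd1, Fzd2 and Fzd7, then Fzd5 and Fzd8, then Fzd3 and Fzd6, and finally Fzd4, Fzd9 and Fzd10. In ESCs, Wnt signalling through beta-catenin helps to maintain self-renewal, and KDM2B is the protein that brings a variant PRC1 complex to nonmethylated CpG-rich DNA.

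Promoters are shown because the deleted domain binds CpG dinucleotides. RefSeq entries (assembly GRCm38.p6, a later assembly than the mm9 of the expression tables) matched 6 members, Fzd1, Fzd4, Fzd5, Fzd7, Fzd9 and Fzd10. The 4 sequences below are the 250 bases before the RefSeq start of the gene, 5′ to 3′ on the strand of the gene, with each CpG in capitals. They are Fzd1, from which the family was chosen, its close relative Fzd7, and Fzd10 and Fzd9, which had a large and a small difference in expression. Fzd1 lies at chr5:4758217-4758466 on the minus strand, Fzd7 at chr1:59481897-59482146 on the plus strand, Fzd10 at chr5:128600856-128601105 on the plus strand and Fzd9 at chr5:135251048-135251297 on the minus strand.
Fzd1: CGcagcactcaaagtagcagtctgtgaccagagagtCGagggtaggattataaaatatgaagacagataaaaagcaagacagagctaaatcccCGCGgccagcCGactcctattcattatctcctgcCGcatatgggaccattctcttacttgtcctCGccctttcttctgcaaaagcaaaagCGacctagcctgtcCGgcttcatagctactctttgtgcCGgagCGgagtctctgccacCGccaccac
Fzd7: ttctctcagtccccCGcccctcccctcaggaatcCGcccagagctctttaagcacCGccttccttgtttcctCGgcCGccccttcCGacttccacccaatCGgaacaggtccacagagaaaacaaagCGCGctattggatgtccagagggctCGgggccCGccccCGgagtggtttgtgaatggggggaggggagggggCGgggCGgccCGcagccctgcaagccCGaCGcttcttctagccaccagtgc
Fzd10: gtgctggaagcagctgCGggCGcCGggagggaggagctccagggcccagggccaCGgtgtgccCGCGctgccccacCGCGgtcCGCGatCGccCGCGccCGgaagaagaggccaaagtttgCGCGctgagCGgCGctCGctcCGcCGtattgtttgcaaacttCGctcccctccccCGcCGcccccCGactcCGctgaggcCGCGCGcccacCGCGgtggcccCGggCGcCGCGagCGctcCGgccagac
Fzd9: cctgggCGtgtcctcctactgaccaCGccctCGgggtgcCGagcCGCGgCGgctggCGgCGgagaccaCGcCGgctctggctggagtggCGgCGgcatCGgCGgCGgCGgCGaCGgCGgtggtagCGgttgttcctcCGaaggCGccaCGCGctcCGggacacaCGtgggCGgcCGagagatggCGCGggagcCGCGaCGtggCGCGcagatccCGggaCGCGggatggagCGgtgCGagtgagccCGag
The Fzd1 window held 12 CpG, the fewest of the 6 members, against 17 for Fzd7, 25 for Fzd4, 32 for Fzd5, 37 for Fzd10 and 42 for Fzd9. Over all 32851 promoters of the same length the median was 6 and the quartiles were 2 and 16, so 66.5% of promoters held fewer CpG than Fzd1 and 99.1% held fewer than Fzd9. From fewer to more CpG, log2 differences in expression (tamoxifen minus untreated, described further on) were −0.11 for Fzd7, −0.61 for Fzd4 and −0.41 for Fzd5. They were −0.67 for Fzd10 and 0.04 for Fzd9. Fzd1, with the fewest CpG, had −0.91, the fall that chose the family. CpG number was not tested against these differences. In mm9 the GENCODE models start upstream of the models behind the FPKM values for Fzd10 (129106719 against 129106981) and Fzd9 (135727100 against 135726917). Whether the windows of these genes hold transcribed bases was not examined. No binding of KDM2B at these promoters was analysed here.

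Of the family, Fzd7, Fzd2 and Fzd5 were the most highly expressed receptors in these ESCs. In untreated samples the mean FPKM was 28.0 ± 10.7 for Fzd7, 15.0 ± 4.90 for Fzd2, 11.0 ± 3.61 for Fzd5, 6.80 ± 3.57 for Fzd10, 5.68 ± 2.59 for Fzd6 and 3.46 ± 1.63 for Fzd9 (SD, n = 3). The 4 lowest members were Fzd1 at 2.01 ± 0.271, Fzd8 at 1.58 ± 0.386, Fzd3 at 1.15 ± 0.378 and Fzd4 at 1.15 ± 0.421 (SD, n = 3). Between neighbours in this order only Fzd7 and Fzd2 did not overlap across the untreated samples, and all other neighbours did. In tamoxifen samples the order was Fzd7, Fzd2, Fzd5, Fzd10, Fzd9, Fzd6, Fzd8, Fzd1, Fzd3 and Fzd4, and the neighbours without overlap were Fzd2 with Fzd5 and Fzd6 with Fzd8. In such bulk samples fewer cells of a type and less RNA per cell cannot be told apart. Summed over the family, FPKM was 65.2, 105 and 56.7 in untreated replicates 1, 2 and 3 and 52.5, 89.0 and 58.7 in tamoxifen replicates 1, 2 and 3. Fzd2, Fzd5 and Fzd7 together made up 69.8% to 73.9% of this sum in untreated and 75.7% to 78.8% in tamoxifen samples. The share of Fzd1 was 2.13% to 3.63% in untreated and 1.19% to 2.18% in tamoxifen samples. None of the 10 loci overlaps another named gene in the tables, and no stretch of 51 bases, the read length, was shared between the transcripts of different members.

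**Figure D1:**
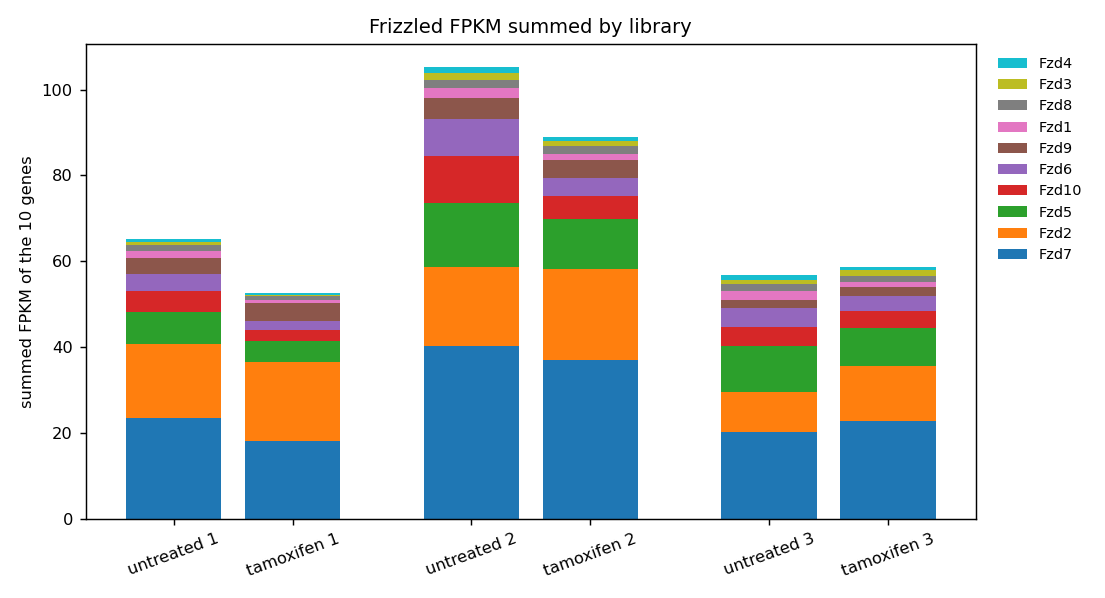
Stacked bars give the FPKM of the 10 Frizzled genes in each of the 6 libraries, with pairs of the same replicate number side by side and one colour per gene. Fzd7, Fzd2 and Fzd5 form the bulk of every bar, and the replicate 2 bars are the highest, at 105 untreated and 89.0 tamoxifen.

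Fzd1, a receptor of 1 exon at chr5:4753839-4758216 on the minus strand (mm9, also for the positions that follow), had FPKM of 1.71, 2.25 and 2.06 in untreated replicates 1, 2 and 3 and 0.625, 1.30 and 1.28 in tamoxifen replicates 1, 2 and 3. All 3 tamoxifen values were below all 3 untreated ones, and the Cufflinks confidence intervals of the same replicate number were apart in 3 of 3 pairs. Each interval belongs to a single library, and such pairs were not counted over all genes tested. The mean went from 2.01 ± 0.271 to 1.07 ± 0.384 (SD, n = 3), a difference of −0.91 on the log2(FPKM + 0.1) scale used for all differences here. Tamoxifen over untreated ratios were 0.364, 0.578 and 0.621 in replicates 1, 2 and 3. Of all genes tested, 5.4% had all 3 tamoxifen samples below all untreated samples and 3.09% had them above, and 2.41% had a lower log2 difference than Fzd1. Since this fall chose the family, nothing is read from it.

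None of the 9 paralogs had groups that did not overlap. Without a replicate block, limma called none of them (all adjusted p = 0.999 or above), among 0.0231% of all genes tested called higher and 0.00769% called lower. At an unadjusted p under 0.05 this fit passed 0 of the 9 paralogs, beside 4.79% of all genes tested. Samples of the same replicate number deviated together, and the replicate number was therefore also entered as a block. With the block, 4.33% of all genes tested were called higher and 6.06% lower, and Fzd6 and Fzd10 were called lower, that is 2 of 9 paralogs, with none called higher. Both calls were kept without replicate 1 or replicate 3 and lost without replicate 2. With both libraries of replicate 2 left out, the adjusted p from limma with the block was 0.227 for Fzd6 and 0.286 for Fzd10, while calls over all genes dropped to 36 higher and 43 lower. With quantile normalization and the block it was 0.063 and 0.094. At an unadjusted p under 0.05 limma with the block, on all 6 samples, passed 5 of the 9 paralogs, beside 3873 of 12997 genes tested. Of these paralogs Fzd2 was higher and Fzd4, Fzd5, Fzd6 and Fzd10 were lower.

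Fzd6, which with Fzd3 forms a subfamily linked to planar cell polarity, lies at chr15:38837826-38869736 on the plus strand and has 7 exons. Its FPKM was 3.93, 8.66 and 4.46 in untreated replicates 1, 2 and 3 and 2.00, 4.08 and 3.58 in tamoxifen replicates 1, 2 and 3. Every tamoxifen sample was below the untreated sample of its number, while tamoxifen replicate 2 lay above untreated replicate 1, so the groups overlap. The difference was −0.77, with a standard error of 0.382 without the block and 0.171 with it, and the limma adjusted p was 0.999 and 0.032. Leaving out 1 library reduced the difference to −0.43 (untreated replicate 2) or −0.47 (tamoxifen replicate 1).

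Fzd10, of the Fzd4, Fzd9 and Fzd10 subfamily, is a gene of 1 exon at chr5:129106981-129109968 on the plus strand. FPKM was 4.94, 10.9 and 4.54 in untreated replicates 1, 2 and 3 and 2.73, 5.49 and 3.99 in tamoxifen replicates 1, 2 and 3. Untreated replicate 2 was the highest of the 6 and the groups overlap, since tamoxifen replicate 2 was above untreated replicates 1 and 3. The difference was −0.67, with a standard error of 0.394 without and 0.170 with the block and limma adjusted p of 0.999 and 0.049. In replicate 3 alone the ratio of tamoxifen to untreated was 0.877, against 0.552 and 0.503 in replicates 1 and 2. Leaving out untreated replicate 2 reduced the difference to −0.27, and leaving out tamoxifen replicate 1 to −0.41.

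Fzd5 and Fzd4 had lower values in each replicate number but were not called in either fit. Fzd5, with 2 exons at chr1:64777132-64784324 on the minus strand and expressed at 7.59, 14.8 and 10.5 FPKM in untreated and 4.92, 11.5 and 8.86 in tamoxifen replicates 1, 2 and 3, differed by −0.41 with a limma adjusted p of 0.066 with the block. The confidence intervals of Fzd5 were apart in 3 of 3 pairs, the only paralog for which this held. How many of all genes tested have intervals apart in this way was not counted. Fzd4, the receptor for the non-Wnt ligand Norrin, with 2 exons at chr7:96552876-96558620 on the plus strand, had 0.784, 1.61 and 1.05 FPKM in untreated and 0.321, 1.10 and 0.873 in tamoxifen replicates 1, 2 and 3. Its difference was −0.61 (limma adjusted p = 0.135 with the block), on lower values than those of Fzd5.

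The close relatives of Fzd1, Fzd2 and Fzd7, were not called in either fit. Fzd2, a gene of 1 exon at chr11:102465745-102469372 on the plus strand, had 17.1, 18.6 and 9.42 FPKM in untreated and 18.4, 21.4 and 12.9 in tamoxifen replicates 1, 2 and 3. It was the only member with a higher value in 3 of 3 replicate numbers, with a difference of 0.25 and a limma adjusted p of 0.166 with the block. Fzd7, the highest member, at chr1:59538991-59543799 on the plus strand, had 23.5, 40.2 and 20.2 FPKM in untreated and 18.0, 36.9 and 22.7 in tamoxifen replicates 1, 2 and 3. It was lower in replicates 1 and 2 and higher in replicate 3, with a difference of −0.11 (limma adjusted p = 0.560 with the block). The differences of Fzd1 on one side and of Fzd2 and Fzd7 on the other were not tested against each other, because Fzd1 was chosen for its own.

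The remaining members had differences within the spread of the samples. Fzd3, with 7 exons at chr14:65811278-65881300 on the minus strand, had 0.783, 1.54 and 1.13 FPKM in untreated and 0.372, 1.17 and 1.22 in tamoxifen replicates 1, 2 and 3, a difference of −0.39 (limma adjusted p = 0.315 with the block). Fzd8, the relative of Fzd5, had 1.17, 1.94 and 1.62 against 0.919, 1.89 and 1.40 FPKM, a difference of −0.19 (limma adjusted p = 0.494 with the block). Fzd9, of 1 exon at chr5:135724808-135726917 on the minus strand, had 3.73, 4.94 and 1.72 against 4.17, 4.28 and 1.96 FPKM, a difference of 0.04 (limma adjusted p = 0.868 with the block), and its sign turned with scaling to TPM after loci under 300 bp were left out. Of the 9 paralogs, 7 had a difference below 0, beside 52.8% of all genes tested, and the median was −0.39, beside −0.02. Values were lower in 3 of 3 replicate numbers for 5 of 9 paralogs, beside 28.2% of all genes tested, and higher for 1 of 9, beside 24.8%.

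**Figure D2:**
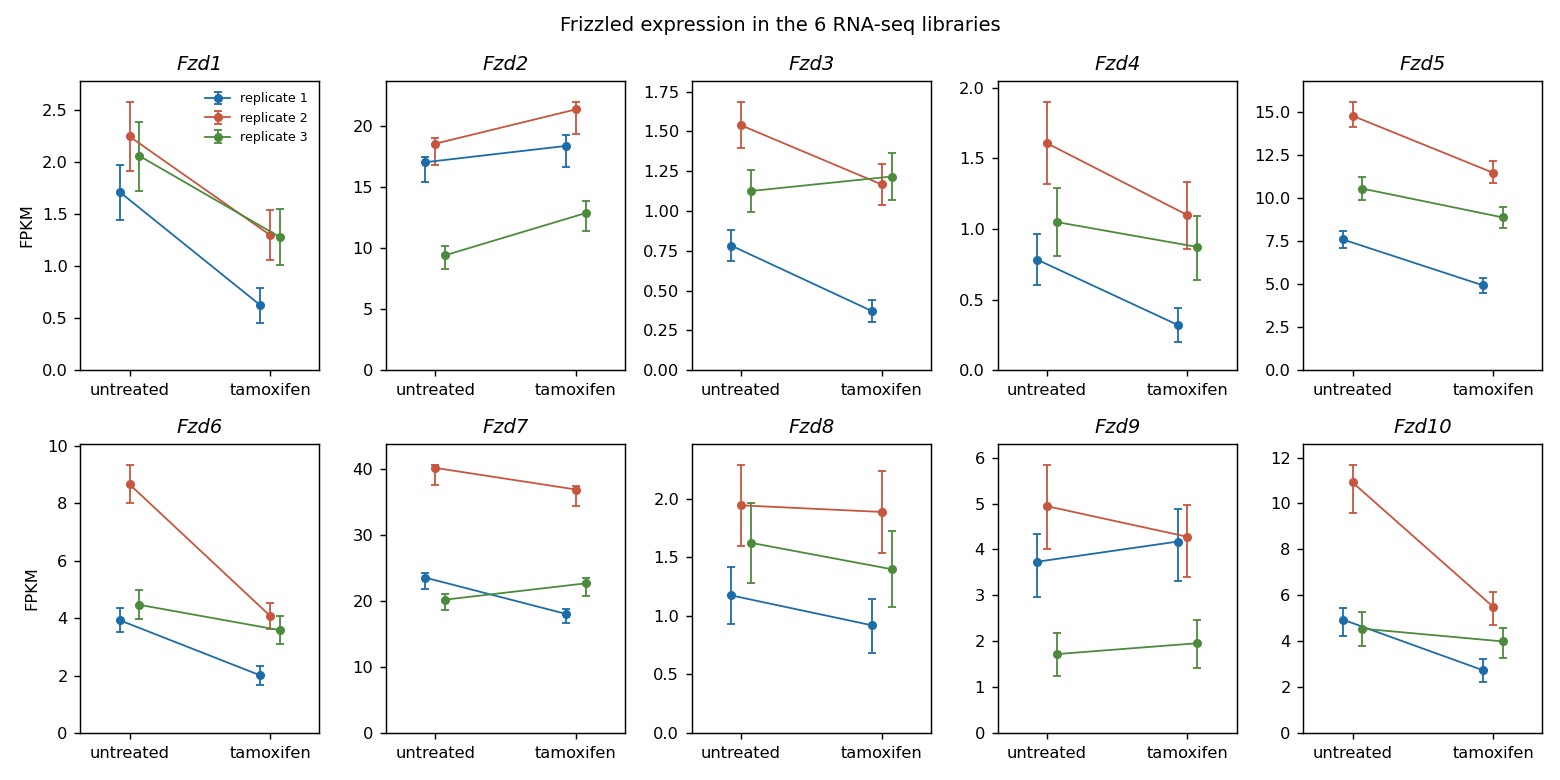
Each panel gives the FPKM of one Frizzled gene in untreated and tamoxifen samples, with lines joining samples of the same replicate number and bars showing the Cufflinks confidence interval of each value. Only for Fzd1 do the tamoxifen points all lie below the untreated points, and replicate 2 is high in most panels.

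**Figure D3:**
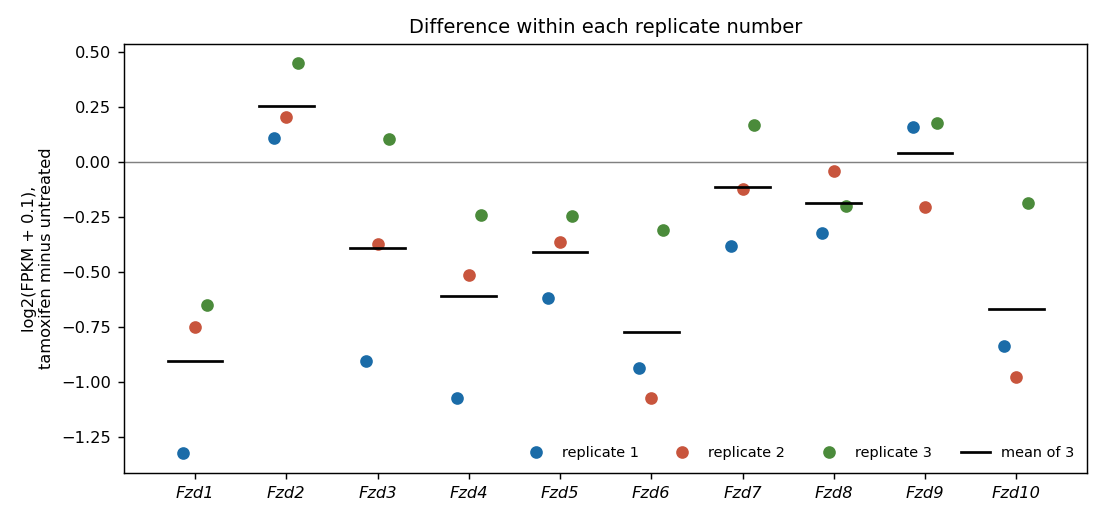
Points are the difference of tamoxifen from untreated on the log2(FPKM + 0.1) scale within each replicate number and the bar is the mean of 3. Fzd1 and 5 paralogs (Fzd4, Fzd5, Fzd6, Fzd8 and Fzd10) have all points below 0, Fzd2 has all above 0, and Fzd3, Fzd7 and Fzd9 have points on both sides.

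All 10 members were highest in replicate 2 when both samples of a number were averaged, while 27.0% of all genes tested were. The lowest number was replicate 1 for 8 members and replicate 3 for Fzd2 and Fzd9. The range of these averages was larger than the difference between treatments for 9 of 10 members, Fzd1 excepted, and for 89.4% of all genes tested. The total FPKM of a library also followed the number. It was 5.49e+05, 1.05e+06 and 8.05e+05 in untreated and 6.21e+05, 9.29e+05 and 6.49e+05 in tamoxifen replicates 1, 2 and 3. Loci under 300 bp held 23.9%, 67.7% and 54.7% of it in untreated and 25.6%, 61.6% and 42.3% in tamoxifen replicates. The order of the members by replicate was not computed after division by these totals, so it holds for FPKM only. Feeder fibroblast markers (collagens, Dcn, Thy1 and others, 10 in all, 7 of them at 1 FPKM or more in every sample) also followed the number, with a summed FPKM of 40.1, 110 and 80.8 in untreated and 48.7, 106 and 78.1 in tamoxifen replicates 1, 2 and 3. Lum was near 0 throughout, listed at 0 in untreated replicate 1, and no feeder marker was called in either fit. Their part in the Frizzled levels was not tested.

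Markers of other cells also differed between the groups. Neural progenitor markers summed to 42.9 to 49.8 FPKM in untreated and 21.6 to 30.7 in tamoxifen samples, without overlap, and 4 of the 4 tested of 6 (Sox1, Pax6, Nes and Olig2) were called lower with the block, beside 6.06% of all genes tested. Primitive endoderm markers summed to 7.32 to 10.7 and 4.78 to 9.18 FPKM, and Gata4 and Gata6 were called lower with the block, of 4 tested of 7, while Dab2 had a difference of 0.23 and was not called. The call of Gata4 was lost with quantile normalization and without replicate 1. Without the block limma called none of the neural or endoderm markers. ESC markers, all 10 above 1 FPKM in every sample, summed to 2962 to 4104 and 3256 to 5664 FPKM and none was called in either fit. Of these 10, 5 were higher in 3 of 3 replicate numbers and 0 were lower, beside 24.8% and 28.2% of all genes tested. Nanog was called higher with the block when replicate 1 was left out. Without both libraries of replicate 2 none of the neural or endoderm markers was called with the block. In that limma fit all 4 tested neural and 2 endoderm markers had an unadjusted p under 0.05, beside 2353 of 12997 genes tested. Foxa2 was listed at 0 in tamoxifen replicate 3 and Neurog2 in tamoxifen replicate 2. The part of these markers in the Frizzled differences was not tested. Kdm2b itself had 25.4 ± 3.36 FPKM in untreated and 22.3 ± 2.60 in tamoxifen samples (SD, n = 3), a difference of −0.19 (limma adjusted p = 0.306 with the block), and a whole-gene value does not resolve the loss of 1 exon.

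Wnt pathway genes around the receptors were described from lists set by role. Over the 60 pathway genes tested, limma without the block called none (7 had an unadjusted p under 0.05, beside 4.79% of all genes tested), and with the block it called 1 higher and 9 lower, beside 4.33% and 6.06% of all genes tested. Of these 10 calls with the block, only the 1 higher gene, Porcn, was kept without both libraries of replicate 2. Without replicate 3 the calls of Wnt5a, Wnt6, Wnt7b, Wls and Pygo1 were lost, and without replicate 1 those of Cdx2 and Ptk7. With the block and quantile normalization 1 was higher and 4 were lower (Cdx2, Ptk7, Wls and Wnt9a). Of 20 Wnt ligands (Ndp, the Norrin gene, among them), 8 were expressed enough to test and 4 were called lower with the block, beside 6.06% of all genes tested, with a list median of −0.73. Wnt9a had 3.81, 3.67 and 3.57 FPKM in untreated and 1.55, 1.66 and 1.54 in tamoxifen replicates 1, 2 and 3, with no overlap and little spread within a group. It differed by −1.17 (limma adjusted p = 0.382 without and 0.005 with the block). Of the 60 pathway genes tested, Wnt3, Wnt6, Wnt7b, Wnt9a, Sfrp2, Dkk3, Smo, Axin2, Pygo1 and Cdx2 had all tamoxifen values below all untreated ones. Porcn and Sfrp4 had all of them above. Over all genes tested this held for 5.4% with tamoxifen lower and 3.09% with tamoxifen higher. Wnt6 differed by −1.22, Wnt5a, which signals largely without beta-catenin, by −0.82, and Wnt7b by −0.65 (limma adjusted p with the block of 0.025, 0.033 and 0.032).

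Of the 3 genes in the Wnt secretion list, Porcn and Wls moved in opposite directions with the block. The other, Notum, was also listed as a Wnt target. Porcn, which attaches the lipid that Wnt ligands need to bind a Frizzled, had 6.82, 9.92 and 4.97 FPKM in untreated and 16.7, 21.6 and 10.8 in tamoxifen replicates 1, 2 and 3. This was a rise of 1.16, higher in 3 of 3 numbers (limma adjusted p = 0.602 without and 0.003 with the block). Wls, the carrier of lipid-modified Wnt to the cell surface, fell by 0.58 (limma adjusted p = 0.014 with the block). Of the 5 secreted antagonists tested of 11, only Sfrp2, which binds Wnt through a Frizzled-like domain, was called, at −0.78 (limma adjusted p = 0.034 with the block).

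The co-receptor list of 10 genes, 9 of them tested, also held Smo, the Frizzled-related receptor of Hedgehog signalling, and Kremen1 and Kremen2. Of those tested only Ptk7 was called, with a fall of 0.44 (limma adjusted p = 0.047 with the block). Lrp5 at −0.31, Lrp6 at −0.22 and Smo at −0.35 were not called. Among the genes that control Frizzled turnover, 3 of 9 were tested and none was called, with Znrf3, a ubiquitin ligase that removes Frizzled from the surface, at −0.32, while Rnf43 was too low to test. No gene was called among the 11 cytoplasmic transducers, with Ctnnb1 (beta-catenin) at 0.01 and Axin2 at −0.59 (limma adjusted p = 0.060 with the block), or among the 7 planar polarity partners. Of 8 nuclear effectors, Pygo1 fell by 0.78 (limma adjusted p = 0.048 with the block) and Tcf7l1 differed by −0.07. Of the 9 Wnt target genes tested of 10, Cdx2 fell by 1.26 (limma adjusted p = 0.031 with the block).

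**Figure D4:**
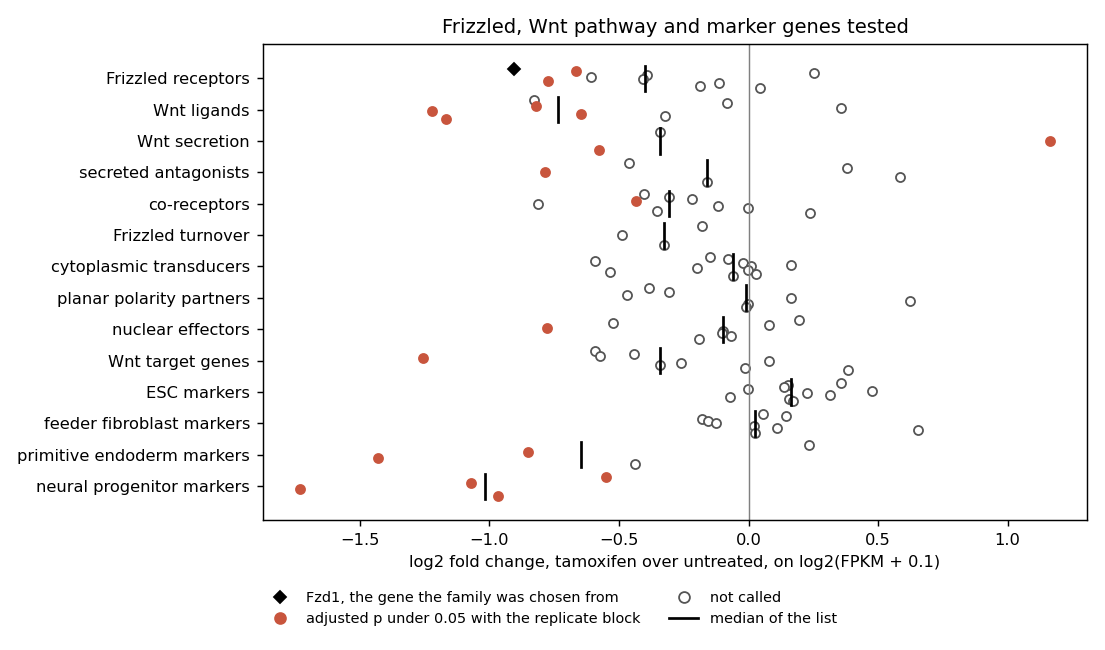
Each point is a tested gene placed by its log2 fold change of tamoxifen over untreated on the log2(FPKM + 0.1) scale, in rows by role, with filled points for genes called with the replicate block, a bar for the list median and a diamond for Fzd1. The Frizzled median, Fzd1 included, is at −0.40 and the Wnt ligand median at −0.73, while the cytoplasmic transducers lie around a median of −0.06.

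Over all genes tested, the 5 with profiles over the 6 samples most like that of Fzd1 were Glrb, Lrrn1, Tmem74, Rai1 and P2ry1, with root mean square differences of 0.098, 0.108, 0.111, 0.115 and 0.124 on the centred log2(FPKM + 0.1) scale. Among 12996 other genes ranked by this measure, the paralogs in order were Fzd6 at 196, Fzd4 at 225, Fzd5 at 445, Fzd3 at 679, Fzd10 at 1103, Fzd8 at 1292, Fzd7 at 3917, Fzd2 at 9942 and Fzd9 at 11146. These ranks are a description over 6 samples that share replicate numbers, and they are set against the values of Fzd1 that chose the family.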

How the data were processed

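RNA-seq values of 3 untreated and 3 tamoxifen treated samples were used, and the ChIP-seq samples of the series were not analysed here. The authors sequenced directional polyA+ libraries as paired 51-base reads, aligned them to mm9 with TopHat2 (version given as 0.5) and deposited FPKM values from Cufflinks/Cuffdiff 2.1.1 on refGene models, with a confidence interval for each. Depth is unknown. Steps in 283 low genes gave depths relative to untreated replicate 1. They were 1, 0.986 and 0.747 in untreated and 0.796, 0.853 and 0.637 in tamoxifen replicates 1, 2 and 3. Rows at 1 FPKM or more numbered 11845, 11980 and 11814 in untreated and 11571, 11883 and 11722 in tamoxifen replicates. Both measures were lower in tamoxifen in each replicate number. Their part in the Frizzled differences was not tested.

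Rows of a gene name were summed and 6 names with a failed quantification were left out. Groups were compared on log2(FPKM + 0.1), a scale that understates changes of low genes, with limma 3.58.1 in R 4.3.3 (eBayes with a mean-variance trend), Benjamini-Hochberg adjustment over 12997 genes and a threshold of 0.05. The fit was also run with the replicate number of the labels as a block. Deviations of same-numbered samples from their group means correlated at 0.544, 0.605 and 0.506 over genes, and those of other pairs at −0.379 to −0.105. Taking deviations from group means itself pushes the other pairs below 0 once same-numbered pairs are above 0. The study's methods call the replicates biological triplicates, without saying how the cultures were separated. The fit was tested on simulated data. Figures and sums used Python 3.11.15, pandas 2.3.3, numpy 2.4.6 and matplotlib 3.10.9. Named genes were the members, pathway genes called in either fit, 8 set pathway genes, Kdm2b and the 5 genes nearest in profile to Fzd1. The members and lists were chosen with earlier results of these data known. Alternatives were other pseudocounts, scalings, filters and row choices, and leaving out libraries. TPM without short loci and the block without each replicate were added after the data had been seen.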

Additional observations from a re-analysis of the deposited data

How the results depend on the processing

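Over 24 settings, counting the fit reported above, no alternative turned the direction of Fzd1, Fzd4, Fzd5, Fzd6 or Fzd10. In that order their ranges were −1.07 to −0.55, −0.91 to −0.15, −0.67 to −0.07, −1.0 to −0.43 and −0.91 to −0.27. Leaving out 1 library moved each of them by over 1.5 times, Fzd1 to −0.59 without tamoxifen replicate 1. Several settings could not turn a direction, since the block, the eBayes trend, the row choice and dropping the filter leave the difference itself unchanged. Fzd1 and Fzd4 did not pass the filter of 1 FPKM in all samples. The Frizzled median, with Fzd1 counted wherever it passed the filter, stayed below 0 between −0.64 and −0.10. With Fzd1 in it, this median is no test of the family. The filter of 1 FPKM in all samples left 6 members. Scaling to TPM moved the median of all genes from −0.02 to 0.08, and TPM without loci under 300 bp moved it to −0.11. Fzd1 chose the family and is left out of the calls that follow. Without the block no paralog passed the threshold in any setting. With the replicate block Fzd6 and Fzd10 passed it, and with the block and quantile normalization no paralog did. In the blocked fits on fewer samples, Fzd6 and Fzd10 passed without replicate 1 and without replicate 3, and no paralog passed without replicate 2. The block changed no call of the other paralogs. Over all genes, 3 were higher and 1 lower without the block, 563 and 787 with the replicate block, 558 and 586 with the block and quantile normalization. With the block they were 744 and 1011 without replicate 1, 36 and 43 without replicate 2, and 359 and 478 without replicate 3. Without the block, leaving out libraries gave 0 to 5 higher and 0 to 7 lower, no filter gave 1 and 0, a filter of 1 FPKM in all samples gave 0 and 0, and a pseudocount of 1 gave 0 lower. The cause of these shifts was not tested. Directions turned for Fzd2 (−0.051 without untreated replicate 3, up to 0.46 without tamoxifen replicate 3), Fzd3 (0.094 without tamoxifen replicate 1, down to −0.65 without tamoxifen replicate 3), Fzd8 (0.065 without tamoxifen replicate 1, down to −0.42 without tamoxifen replicate 2) and Fzd7 (0.022 without replicate 1 with or without the block, 0.11 without tamoxifen replicate 1, 0.18 without untreated replicate 2, down to −0.40 without tamoxifen replicate 2). Fzd9 turned to −0.014 without replicate 1 and −0.024 without replicate 3, each with or without the block, to −0.042 with TPM without short loci, and to −0.13, −0.14 and −0.38 without tamoxifen replicate 1, tamoxifen replicate 2 or untreated replicate 3, and reached 0.40 without tamoxifen replicate 3. With 3 samples a group and no read counts, small differences in members under 2 FPKM were not resolved.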
